A study of Bos taurus with 20 samples.

Results

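Beta-defensins and cathelicidins, the main antimicrobial peptide families of cattle, were followed here in maternal blood. The members were chosen by symbol: DEFB1, DEFB10, DEFB4A, DEFB5 and DEFB7 among beta-defensins, and CATHL1, CATHL2, CATHL3, CATHL5 and CATHL6 among cathelicidins. Of the 10 symbols, 9 matched 1 of the 37063 genes of the count table through the RefSeq cattle gene table (ARS-UCD2.0). DEFB5 matched neither a current symbol nor an older name, so no value is given for it. Whole blood was drawn into Tempus tubes at day 63 of gestation from 20 cows. The methods call them lactating dairy cows, whereas the overview of animals gives Angus of 1 to 9 years, and which of these holds could not be settled here. Each cow was an embryo recipient carrying a female fetus of a beef breed, from an embryo made in vitro with X-sorted semen. All cows formed 1 group, with no untreated or non-pregnant sample among them, and differed by the birth weight (BW) of the calf later born, from 30 to 72.5 kg. The question was which of these genes are measurable in maternal blood and whether their level goes with calf BW.

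Beta-defensins are short cationic peptides, folded around disulfide bonds, that disrupt microbial membranes and attract leukocytes. Bovine neutrophils store a large set of them in their granules, and related members such as TAP, LAP and EBD are made by the epithelia of the airway, tongue and gut. Cathelicidins are stored in neutrophil granules as proforms with a conserved cathelin domain, and the active peptide is cut off by neutrophil elastase (ELANE) after release. Their transcripts are made during granulocyte maturation in the bone marrow, and circulating mature neutrophils carry the stored proform.

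The libraries held 24632077 to 39892111 counts on genes (median 33412740). A gene was called detected when it had at least 10 counts in at least 5 cows, which 16269 genes did. Levels are given as CPM, the counts scaled to a common library size, and each cow is named by the weight of her calf. No transcript lengths were used, so expression levels are compared between cows for 1 gene and not between genes, and counts of different genes are set side by side only for the precision they give. Many low counts were even (over all genes and cows, the value 2 occurred 10846 times and the value 1 only 3918 times), as when both reads of a pair are counted, so that 10 counts can stand for as few as 5 fragments. In whole blood, fewer cells of a type and less RNA per cell cannot be told apart.

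Detection split the members by family. All 4 matched beta-defensins were detected, and none of the 5 cathelicidins was. DEFB1, DEFB10 and DEFB7 had counts in each of the 20 cows, and DEFB4A had counts in 19 of them. The 5 cathelicidins had 58 counts in all, spread over 9 cows, and 11 cows had none.

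**Figure D1:**
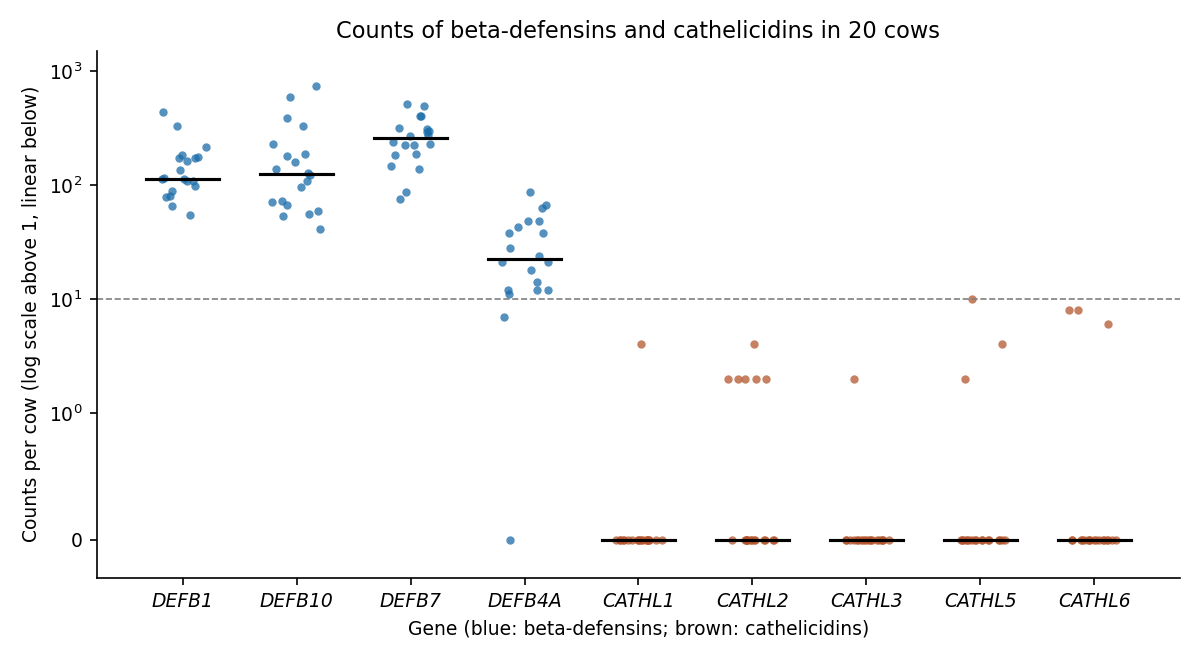
Counts per cow (vertical axis, logarithmic above 1 count and linear below) of the 9 matched members, with 1 point per cow, the median as a black bar and the minimum of 10 counts as a dashed line. The beta-defensins in blue lie above the line in nearly every cow, while the cathelicidins in brown lie at 0 in most cows and reach 10 counts once.

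Among the cathelicidins, CATHL2 (Entrez 282165), which encodes the proline-rich peptide Bac5, had 14 counts over 6 cows and no more than 4 in any of them. CATHL6 (317651) had 22 counts over 3 cows, namely 8 each with the 35 kg and 38 kg calves and 6 with the 54 kg calf. CATHL5 (282167) had 16 counts over 3 cows, with 10 for the 35 kg calf, 4 for the 36 kg calf and 2 for the 54 kg calf. CATHL1 (282164) had 4 counts, all in the recipient with the 49.5 kg calf. CATHL3 (281037), which encodes the proline-rich peptide Bac7, had 2 counts, both in the recipient with the 50 kg calf. The family's highest sum, 20 counts (0.680 CPM), was in the recipient with the 35 kg calf. That cow also had the highest level of LTF, which encodes the granule protein lactoferrin, at 48.3 CPM. All 14 values above 0, out of 100 cathelicidin values, were even. A count of 0 allows up to 3 counts where each count is a separate fragment, which is 0.0752 to 0.122 CPM at these depths. The limit is higher where both reads of a pair were counted, and it covers counting error only. No cathelicidin had enough counts for the slope on calf BW, and the family's summed CPM had rho = -0.22 with BW over the 20 cows, with 11 cows tied at 0.

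DEFB10 (100141457) was the most variable detected member. Its level ran from 1.40 CPM in the recipient with the 72.5 kg calf, over a median of 3.71, to 19.1 CPM in the recipient with the 32 kg calf, a 13.6-fold span. After her came those with the 37 kg calf at 17.1 CPM, the 35 kg calf at 13.1 and the 39 kg calf at 8.90. The 4 highest values thus belonged to cows whose calves weighed 32 to 39 kg. Unlike them, the recipient with the lightest calf, of 30 kg, had 2.40 CPM, below the median. At the other end, recipients with the 53, 54, 55 and 56 kg calves had 3.58, 4.81, 2.31 and 2.13 CPM.

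DEFB1 (100297617) ran from 2.06 CPM in the recipient with the 56 kg calf, over a median of 3.99, to 11.2 CPM in the recipient with the 32 kg calf, a 5.46-fold span. The recipient with the 37 kg calf followed at 9.60 CPM. As for DEFB10, these 2 cows stood above all others, the next value being 5.98 CPM in the recipient with the 35 kg calf. The recipient with the 30 kg calf, at 4.43 CPM, was above the median for DEFB1.

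DEFB7 (768320) had the narrowest spread, from 3.09 to 14.2 CPM around a median of 7.71 (coefficient of variation 0.407, against 0.531 for DEFB1, 0.700 for DEFB4A and 0.918 for DEFB10). Its lowest value was in the recipient with the lightest calf, of 30 kg, and the next in the recipient with the 56 kg calf at 3.28 CPM. Its 3 highest, 14.2, 13.7 and 13.2 CPM, were in recipients with the 50, 35 and 32 kg calves, so both ends of its range held light and heavy calves.

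DEFB4A (286836) was measured with the least precision of the detected members, from 612 counts over all cows against 3000 for DEFB1, 3795 for DEFB10 and 5292 for DEFB7. It reached at most 2.53 CPM, in the recipient with the 37 kg calf, around a median of 0.787. The recipient with the 46 kg calf had none of its counts, which allows up to 0.0912 CPM, or more where both reads of a pair were counted. In 18 of 20 cows it had at least 10 counts.

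Calf BW was tested against each gene by a straight line. The slope is the change in log2 expression per kg of calf BW, from edgeR's quasi-likelihood test in 19 cows, without the recipient with the 72.5 kg calf, with the false discovery rate (FDR, Benjamini-Hochberg) taken over all 16269 genes. DEFB10 had a slope of -0.096 per kg (SE 0.023, 95% confidence interval -0.14 to -0.048, p = 0.00047, FDR = 0.111), and had the 63rd smallest p. Along that line, a cow of a 30 kg calf had 5.61 times the DEFB10 of a cow of a 56 kg calf (95% interval 2.36 to 13.4). DEFB1 had a slope of -0.054 per kg (SE 0.015, interval -0.085 to -0.023, p = 0.00169, FDR = 0.150), which over the same range is 2.65-fold (interval 1.51 to 4.64). Neither gene passed the FDR threshold of 0.05 in edgeR.

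For DEFB4A the slope was -0.039 per kg (SE 0.032, interval -0.10 to 0.027, p = 0.233, FDR = 0.635). For DEFB7 it was -0.0098 per kg (SE 0.017, interval -0.045 to 0.025, p = 0.567, FDR = 0.847). Both intervals included 0. The intervals still allow a DEFB4A level 6.59-fold higher, and a DEFB7 level 2.24-fold higher, at 30 than at 56 kg.

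**Figure D2:**
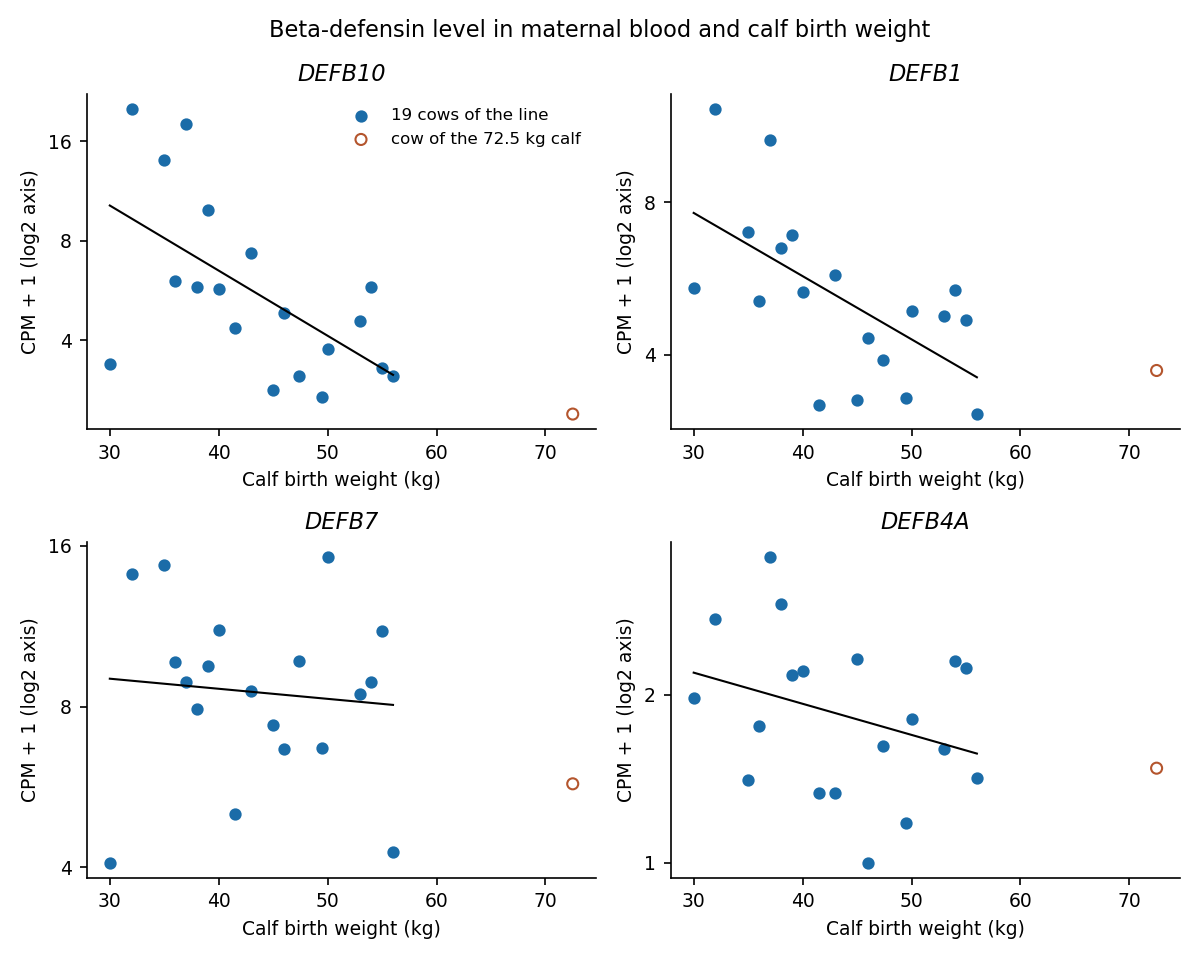
Level of the 4 detected beta-defensins (CPM + 1, log2 axis) against calf BW in kg, 1 point per cow, with a least-squares line through 19 cows on the log2 scale and the recipient with the 72.5 kg calf as an open circle outside the line. The points of DEFB10 and DEFB1 tend downward from light to heavy calves with wide scatter, the recipients with the 30, 36 and 54 kg calves being among those off the line, while those of DEFB7 and DEFB4A scatter around nearly flat or shallow lines.

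No member was called at an FDR under 0.05 (0 of 4), and no gene of the 16269 was (percent called 0, lowest FDR 0.0885). With all 20 cows edgeR again called none of the 4, at an FDR of 0.0929 for DEFB10 and 0.165 for DEFB1, and 0.0246% of all genes. At an unadjusted p under 0.05, 2 of the 4 detected members had a negative slope, against 7.06% of all genes tested. All 4 slopes were negative, as were 53.2% of all slopes, and their median was -0.046 per kg against -0.00069 over all genes. The members co-vary across cows, so the 4 slopes are not independent.

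DESeq2's Wald test, the test used in the study, called 2 of 4 members in the same cows, at an FDR of 0.0240 for DEFB10 and 0.0487 for DEFB1, where 1.22% of the 15479 genes with an adjusted p were called. DEFB10 and DEFB1 were also picked by the study on these samples, so their direction is not independent evidence. With all 20 cows, DESeq2 called 1 of 4, DEFB10 (FDR = 0.00821, against 0.0565 for DEFB1), and 1.03% of all genes. With each of the 19 cows left out, DESeq2's FDR ran from 0.000662 to 0.0931 for DEFB10 and from 0.0241 to 0.187 for DEFB1, in both highest without the recipient with the 56 kg calf. DEFB10 was called in 16 of these 19 fits and DEFB1 in 5. In edgeR the slope stayed between -0.11 and -0.080 for DEFB10 and between -0.061 and -0.041 for DEFB1, in both flattest without the recipient with the 32 kg calf. For DEFB7 it turned to 0.0012 without that cow.

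**Figure D3:**
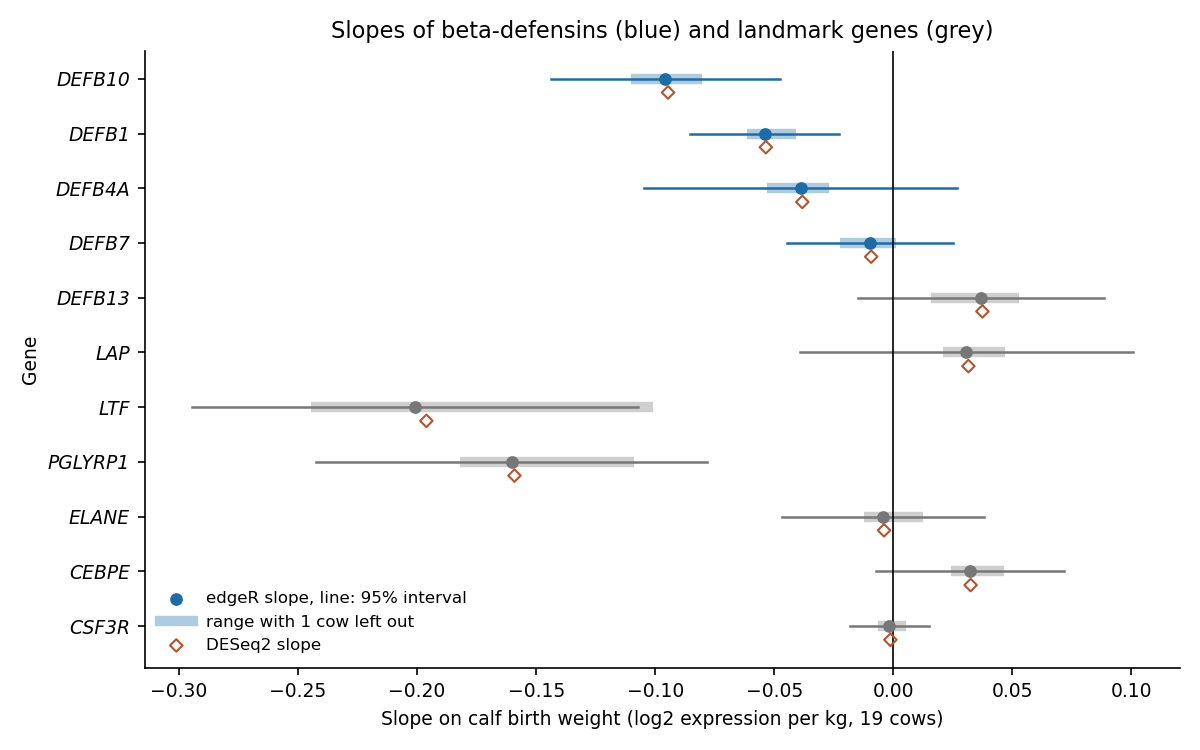
Slope on calf BW (log2 expression per kg, 19 cows) for the beta-defensin members in blue and for other defensins and neutrophil landmark genes in grey, as edgeR estimate with its 95% interval (thin line), range with 1 cow left out (thick band) and DESeq2 estimate (open diamond). The intervals of DEFB10, DEFB1, LTF and PGLYRP1 lie below 0, and those of DEFB4A, DEFB7, DEFB13, LAP, ELANE, CEBPE and CSF3R include it.

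Across all 20 cows, the correlation of log2(CPM + 1) with calf BW was again strongest for DEFB10 and DEFB1. DEFB10 had Pearson's r = -0.62 (p = 0.00318) and Spearman's rho = -0.65 (p = 0.00257), and r = -0.75 without the 2 cows farthest from the median BW. Those were the recipients with the 72.5 and 30 kg calves, the latter being the cow with low DEFB10 (2.40 CPM) despite the lightest calf. Without the recipient with the 72.5 kg calf alone, r was -0.59, so the stronger value came with leaving out that off-trend cow. DEFB1 had r = -0.58 (p = 0.00791) and rho = -0.68 (p = 0.0013), and r = -0.65 without the same 2 cows, against -0.61 without the recipient with the 72.5 kg calf alone. For DEFB4A r was -0.33 (p = 0.151) and rho -0.28 (p = 0.234), and for DEFB7 r was -0.22 (p = 0.353) and rho -0.21 (p = 0.37). These are 2-sided permutation tests with 100000 resamples, 1 per detected member and coefficient, with no adjustment.

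Whether DEFB1, DEFB10 and DEFB7 differed from each other in their relation with BW was tested on the ratio of 2 genes' counts within a cow. The ratio needs no library size, and the test was added after the data were seen. The ratio of DEFB10 to DEFB7 ran from 0.196 in the recipient with the 50 kg calf to 2.17 in the recipient with the 37 kg calf, and its log2 fell with BW (r = -0.61, p = 0.00411, rho = -0.66, p = 0.0018, 20 cows, permutation tests). The ratio of DEFB1 to DEFB10 was higher with heavier calves, and ran from 0.457 in the recipient with the 35 kg calf to 1.95 in the recipient with the 72.5 kg calf (r = 0.54, p = 0.0134, rho = 0.53, p = 0.0184 by permutation). For DEFB1 over DEFB7 the relation had r = -0.42 (p = 0.0656) and rho = -0.44 (p = 0.0564). In all, 6 such ratios were compared, with no adjustment, among the beta-defensins counted in all 20 cows, namely DEFB1, DEFB10, DEFB7 and DEFB13. DEFB4A, without counts in 1 cow, was left out. Over DEFB13, a beta-defensin outside the members, r with BW was -0.52 for DEFB10 (p = 0.022), -0.42 for DEFB1 (p = 0.0649) and -0.33 for DEFB7 (p = 0.158) by permutation.

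The detected members co-varied to unequal degrees. Spearman's rho between pairs of them had a median of 0.49 over 6 pairs, with a range of 0.31 to 0.86, against a median of 0.01 over all pairs of genes tested (5th to 95th percentile -0.44 to 0.46). The closest pair was DEFB1 and DEFB10, with r = 0.90 and rho = 0.86 (p = 1e-05 for each, the smallest that 100000 permutations can give) and r = 0.80 without the 2 cows farthest from the median of DEFB1. After the line on BW was taken out of both genes, r was 0.85 and rho 0.86. Of 16268 other genes, DEFB10 was the 2nd nearest to DEFB1 by rho, and DEFB1 the 2nd nearest to DEFB10.

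The other pairs were looser. DEFB7 had rho = 0.52 with DEFB1 (p = 0.0199), 0.48 with DEFB10 (p = 0.0341) and 0.35 with DEFB4A (p = 0.13). DEFB4A had rho = 0.50 with DEFB1 (p = 0.026), where r = 0.63 went to 0.41 without the 2 farthest cows. With DEFB10 it had rho = 0.31 (p = 0.181), and r = 0.44 went to 0.08 without them. Permutation tests were run on 45 pairs of genes in all, with no adjustment.

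**Figure D4:**
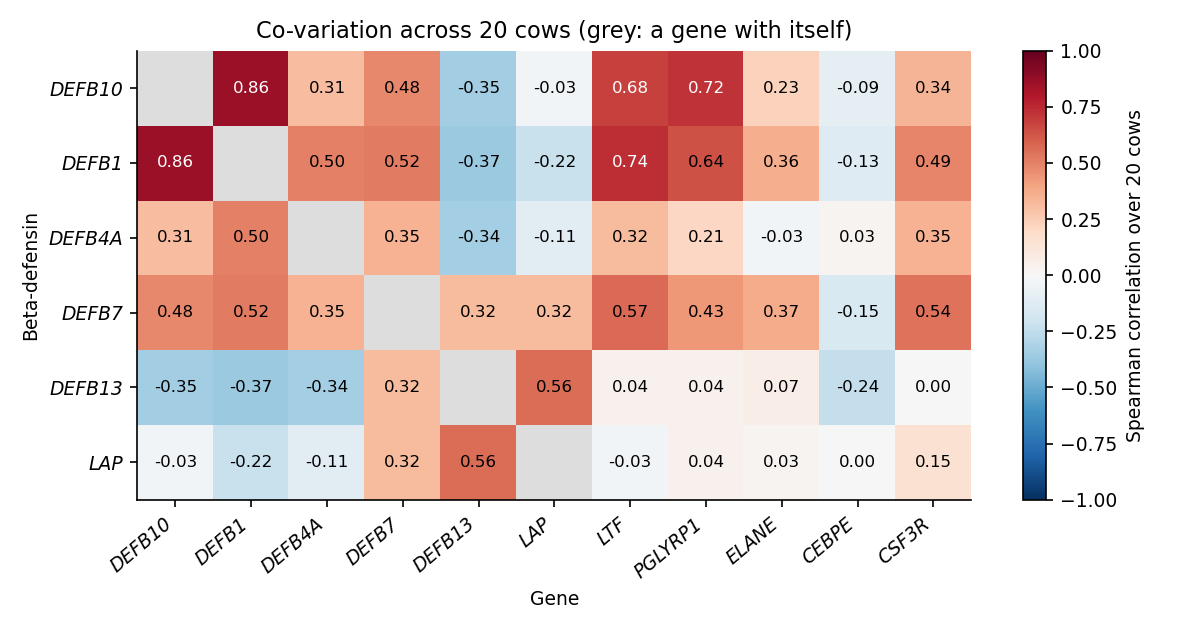
Spearman's rho over 20 cows between each detected beta-defensin (rows) and the defensins and neutrophil landmark genes (columns), coloured from -1 in blue to 1 in red, with grey where a gene meets itself. DEFB1 and DEFB10 form the closest pair at 0.86, both reach 0.64 or more with LTF and PGLYRP1, and DEFB13 is negative with DEFB1, DEFB10 and DEFB4A.

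Of 25 other genes of the 2 families that matched, DEFB13 and LAP were detected, 7 had a few counts and 16 had none. DEFB13 (404107), a neutrophil beta-defensin, ran from 1.22 CPM in the recipient with the 37 kg calf, over a median of 5.23, to 19.6 CPM in the recipient with the 50 kg calf. Its 2 lowest values, 1.22 and 1.56 CPM, belonged to recipients with the 37 and 32 kg calves, which had the highest DEFB10 and DEFB1. DEFB13 had r = -0.54 (p = 0.0157) and rho = -0.37 (p = 0.111) with DEFB1, and r = -0.49 (p = 0.0278) and rho = -0.35 (p = 0.131) with DEFB10, in permutation tests. Without the 2 farthest cows r was -0.08 and -0.04. With the line on BW removed from both genes, rho was -0.57 with DEFB1 (p = 0.0099) and -0.55 with DEFB10 (p = 0.0132), and r was -0.42 and -0.49 without the 2 cows then farthest. The negative r with DEFB1 and DEFB10 thus rested on a pair of cows before the line was removed. After it the 2 cows left out were chosen afresh from the adjusted values. Whether the relation then rests on the first pair was not tested. The slope of DEFB13 on BW was 0.037 per kg (SE 0.025, p = 0.151, FDR = 0.547 in edgeR), and 0.016 without the recipient with the 50 kg calf.

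LAP (403090), lingual antimicrobial peptide, had 164 counts over 18 cows, and 8 cows reached 10 counts. Its slope was 0.031 per kg (p = 0.371, FDR = 0.739 in edgeR), and -0.0044 with all 20 cows. LAP went with DEFB13 (r = 0.58, p = 0.00632, rho = 0.56, p = 0.0114 by permutation), though r was 0.39 without the 2 farthest cows. EBD, enteric beta-defensin, had 52 counts over 10 cows, and TAP, tracheal antimicrobial peptide, 12 counts over 4 cows. Among other cathelicidin genes, CAMP had 14 counts over 4 cows and CATHL4, which encodes indolicidin, had none.

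**Figure D5:**
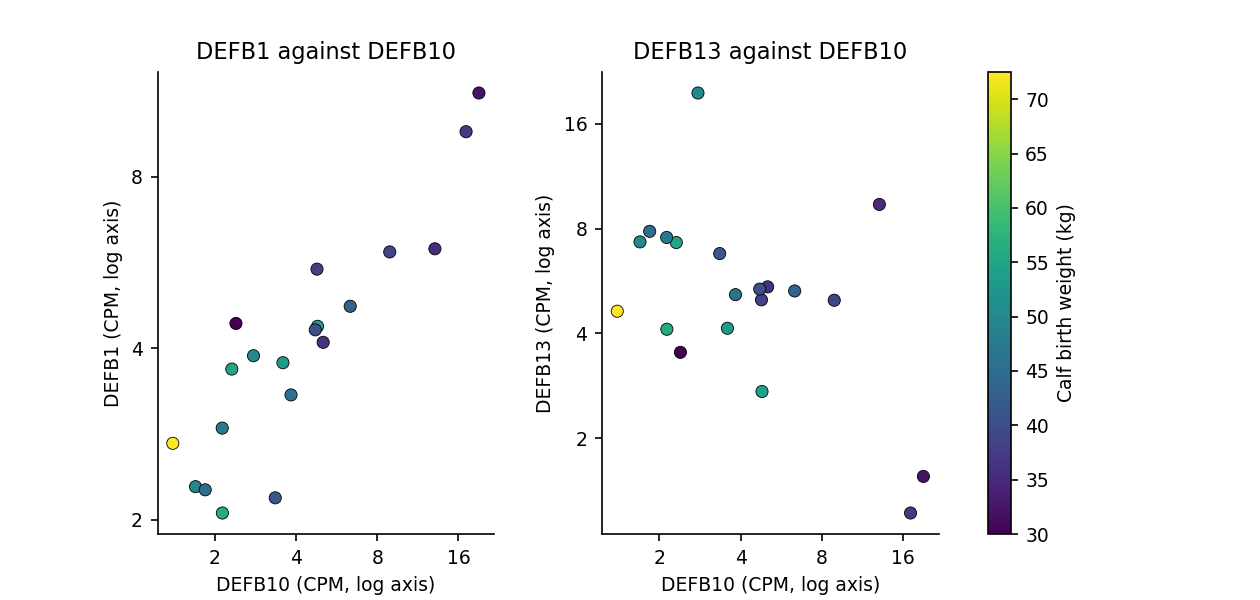
DEFB1 (left) and DEFB13 (right) against DEFB10, in CPM on logarithmic axes, 1 point per cow coloured by calf BW in kg. DEFB1 climbs with DEFB10 over the whole range, while DEFB13 is lowest in the 2 cows with the most DEFB10, those of the 32 and 37 kg calves.

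Genes of these families are similar in sequence and lie side by side, which bears on how reads were shared among them. In the order of the RefSeq table, LAP, DEFB13, DEFB10, DEFB7, DEFB1, DEFB, DEFB4A and EBD lie in 1 stretch of 32 genes, of which 17 are protein coding and 9 of these carry no gene name. The 9 unnamed genes had 223 counts over all cows, and none was tested. The cathelicidins CAMP, CATHL4, CATHL1, CATHL3, CATHL2, CATHL6 and CATHL5 lie in a stretch of 11 genes, whose 3 unnamed coding genes had 4 counts. The entry of DEFB7 carries 11 older names, among them bnbd3, bnbd8, DEFB8 and DEFB9, and that of DEFB13 carries 9, among them DEFB11, so 1 entry may stand for peptides that were once named apart. The treatment of reads with more than 1 matching gene is not given in the sources used here, so the split of counts among neighbours is uncertain. The ratio of DEFB1 to DEFB10 varied 4.27-fold between cows, that of DEFB10 to DEFB7 11.1-fold, and that of DEFB10 to DEFB4A 23.0-fold over the 19 cows with DEFB4A counts. The part of shared reads in the co-variation was not tested.

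Among neutrophil landmarks, LTF and PGLYRP1, a peptidoglycan-binding protein of the secondary granules, had slopes of -0.20 per kg (SE 0.045, FDR = 0.101) and -0.16 per kg (SE 0.039, FDR = 0.111) in edgeR. Without the recipient with the 35 kg calf that of LTF was -0.10. DEFB10 went with PGLYRP1 (r = 0.62, p = 0.00285, rho = 0.72, p = 0.00047 by permutation) and with LTF (r = 0.61, p = 0.00398, rho = 0.68, p = 0.00161). With the line on BW removed, rho was 0.33 for PGLYRP1 (p = 0.155) and 0.36 for LTF (p = 0.125). DEFB1 had rho = 0.74 with LTF (p = 0.00031) and 0.64 with PGLYRP1 (p = 0.00303) by permutation. These too were lower with the line on BW removed, at 0.39 (p = 0.0876) and 0.30 (p = 0.198). ELANE, the elastase of primary granules, CEBPE, a transcription factor of late granulocyte maturation, and CSF3R, the receptor of granulocyte colony-stimulating factor, had slopes of -0.0043, 0.032 and -0.0016 per kg, each within its error of 0 (p = 0.837, 0.106 and 0.847 in edgeR).

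By rank across cows, the 5 genes nearest to DEFB10 were OBSL1 (rho = 0.88), DEFB1 (0.86), RHOG (0.81), LOC132343030 (0.81) and CA2 (0.80). Those nearest to DEFB1 were OBSL1 (0.88), DEFB10 (0.86), SLC16A5 (0.85), SPHK1 (0.85) and FTL (0.83). OBSL1, a cytoskeletal linker, headed both, and its own slope was -0.073 per kg (p = 0.0046, FDR = 0.184 in edgeR). CA2, a carbonic anhydrase abundant in red cells, had a slope of -0.058 per kg (p = 0.000184, FDR = 0.101). The genes nearest to DEFB7 were others, namely SAP30 (0.91), PITPNA (0.84), S100A9 (0.83), NAPRT (0.83) and SLC11A1 (0.83). S100A9 is a calprotectin subunit of neutrophils and SLC11A1 a metal transporter of phagocytes. None of those 5 had a slope beyond its error (p = 0.426 to 0.997).

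The rest of the antimicrobial pathway was read from the same edgeR fit, and none of its lists held a gene at an FDR under 0.05. In DESeq2 LTF (FDR = 0.00752) and PGLYRP1 (FDR = 0.00926) passed, and they stayed called in 19 and 18 of the 19 fits with 1 cow left out. These calls repeat the study's test on its own cows, and LTF is among the biomarker genes the study chose there. They are therefore not independent evidence. Of 16 other antimicrobial genes detected, out of 24 matched, LTF and PGLYRP1 had negative slopes at an unadjusted p under 0.05 and 2 genes, MPO (myeloperoxidase) at 0.047 per kg and RNASE4 at 0.027, had positive ones, against 13.9% of all genes in either direction. The median slope of the 16 was -0.0051 per kg. Among processing enzymes and their inhibitors, 3 of 8 were detected and none had an unadjusted p under 0.05, SERPINB1, an elastase inhibitor, having 0.0051 per kg (p = 0.184) and CTSC, which activates granule proteases, -0.0085 (p = 0.186). Of 9 transcription factors of granulocyte maturation and defensin expression, all detected, KLF5 had 0.018 per kg (p = 0.02) and CEBPE came next. Of 20 inducers of these peptides detected, out of 25, TLR5, the flagellin receptor, had -0.024 per kg (p = 0.0112) and RELB, a subunit of NF-kB, -0.0055 (p = 0.106). Of 6 receptors through which the peptides act, out of 7, none had an unadjusted p under 0.05, TLR4 having -0.0066 per kg (p = 0.16) and P2RX7 -0.0098 (p = 0.274).

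Markers of the blood cell types were set beside the members. All 12 neutrophil markers were detected, at a summed level of 3710 to 5660 CPM, which had rho = -0.08 with BW, 0.53 with DEFB1 and 0.39 with DEFB10. With a neutrophil marker score in the edgeR model the slope was -0.10 per kg for DEFB10 (FDR = 0.0771) and -0.061 for DEFB1 (FDR = 0.077). Without the score the slopes were -0.096 and -0.054 per kg. The part of neutrophil number or maturity beyond this score was not tested. The 7 erythroid markers were all detected, at 54.4 to 1110 CPM in sum. Their sum had rho = -0.59 with BW, 0.69 with DEFB1 and 0.72 with DEFB10, and HBB (beta-globin, -0.072 per kg, p = 0.0322) and ALAS2 (heme synthesis, -0.035 per kg, p = 0.0494) were the 2 with the smallest p. Their part in the relation of DEFB10 and DEFB1 with BW was not tested.

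Of 2 matched eosinophil markers, IL5RA alone was detected, with rho = 0.60 with BW, -0.32 with DEFB1 and -0.36 with DEFB10 for the sum. Monocyte markers, 6 of 6 detected, had rho = -0.19 with BW and 0.70 with DEFB7. The sums of platelet markers (rho = -0.08 with BW), T cells (-0.04), B cells (-0.02), NK cells (0.21) and progenitors (-0.12) had rho of 0.42, -0.10, -0.21, -0.12 and -0.18 with DEFB1. Primary granule markers, 2 of 5 detected, had rho = 0.40 with BW and -0.12 with DEFB10, while 12 of 13 secondary granule markers were detected. Of these 12, 9 had negative slopes, with a median of -0.022 per kg. Their sum had rho = 0.31 with BW and 0.01 with DEFB10, the opposite sign, and most of it came from CYBB (median 315 CPM, slope 0.0015 per kg) and CEACAM1 (291 CPM, 0.016 per kg), which matched the listed CEACAM8 as an older name. Of 12 epithelial markers 6 were detected, with EPCAM, CDH1 and ELF3 counted in all 20 cows, KRT10 in 17, and KRT19 and DSP in 16 each. KRT1 had no count in any cow, KRT5 had counts in 1 cow, KRT14 and DSG1 in 2 each, KRT8 in 4 and KRT18 in 5. The epithelial sum, with a median of 27.4 CPM of which CDH1 alone had 23.1, had rho = 0.48 with BW, -0.31 with DEFB1 and -0.33 with DEFB10, and its part in the relation of the members with BW was not tested. No marker of these cell types passed an FDR of 0.05 in edgeR. At an unadjusted p under 0.05, slopes were positive for PADI4 (neutrophil), MPO (primary granule), CEACAM1 (secondary granule), IL5RA, NCR1 (NK cell), ITGA2B (platelet) and the epithelial CDH1 and DSP. They were negative for CD101 (neutrophil), LTF, PGLYRP1, HBB, ALAS2 and KIT (progenitor). RNASE4 and CEACAM1 are named for completeness of the counts, after their values were seen.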

How the data were processed

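Counts per gene were deposited for 20 libraries, 1 per cow. Per the submitters' processing notes, these deposited raw counts came from featureCounts (Subread 2.0.3) per Entrez gene, after Trimmomatic and alignment by STAR 2.7.0b. The strand setting and the handling of multi-mapping reads are not given in the sources used here, and the labels and the methods name different stranded kits. No batch was given.

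The members and lists were chosen with earlier results of these data known. The raw counts were tested with edgeR 4.0.16 (quasi-likelihood, TMM, slope on calf BW, 19 cows, minimum of 10 counts in 5 of the 20 cows), and alternatively with DESeq2 1.42.0. CPM used the total counts, and correlations log2(CPM + 1). Named genes were the members, detected relatives, 5 neutrophil landmarks, the 5 genes nearest by rho to DEFB7 (highest mean CPM, a rule of choice only) and to members with an edgeR p under 0.05, and the 2 smallest p of each list, some of which are given only by their list. In a single data set simulated for the 19 cows, with genes drawn independently and 200 of 16269 changed by 0.06 per kg, edgeR recovered 77.5% and DESeq2 80.5%. Of their calls, 7.74% and 12.5% were false. No 2 libraries agreed within sampling noise (smallest chi-square per degree of freedom 12.6 over 190 pairs).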

Additional observations from a re-analysis of the deposited data

How the results depend on the processing

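The count of members called on calf BW was 0 of 4 in edgeR under every alternative run (other size factors, other filters, all 20 cows, ranked BW, library size or neutrophil score as a covariate) and 0 to 0 with each cow left out. Over all genes those fits called 0 to 4 genes, except 143 with any count as the filter and 37 without the recipient with the 32 kg calf. With DESeq2 it was 2 in the 19 cows, 1 in all 20 cows and 0 to 2 with 1 cow left out (189, 151 and 33 to 427 of all genes), being 0 once the recipient with the 35 kg calf or that with the 56 kg calf was left out. DESeq2 in all 20 cows and with 1 cow left out was added after seeing the data. The slopes of DEFB10, DEFB1 and DEFB4A stayed negative throughout. That of DEFB7 was -0.0223 to 0.00118 in edgeR with each cow left out, turning positive without the recipient with the 32 kg calf, and -0.0218 to 0.00107 in DESeq2, where it was also positive, at 0.000599, without that with the 56 kg calf. DEFB4A could not be fitted under the filter of 10 counts in every cow, which it fails. The number of members detected was 5 with at least 1 count in at least 5 cows, which adds CATHL2, and 3 with 10 counts in every cow. The median rho between detected members was 0.42 to 0.54 with 1 cow left out. Without the heaviest calf or with a pseudocount of 0.1, no Pearson correlation of a member with BW changed sides of a permutation p of 0.05. DEFB10 and DEFB1 stayed under it (p = 0.00754 and 0.00535 without the heaviest calf), and DEFB4A and DEFB7 stayed above it. No paired analysis was possible because all cows form 1 group. Depth limits the cathelicidins, all under the minimum, and DEFB4A. In the single simulated data set the share of false calls was above the threshold of 0.05 for both edgeR (7.74%) and DESeq2 (12.5%). A single draw cannot show how often either test exceeds it, and genes were drawn independently there.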
